A study of Mus musculus with 4 samples.

Results

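The 82 genes described here encode the proteins of the cytosolic ribosome, the particle that translates nuclear mRNA. They were taken by symbol from the 32285 genes of the count tables: Rpl or Rps with a number and at most 1 of the letters a, l, x or p and 1 digit, plus Rplp0, Rplp1, Rplp2 and Rpsa, with at least 40 unique molecular identifiers (UMIs, each counting 1 captured mRNA molecule) summed over the libraries. Of 83 symbols that fit, Rpl10l had 0 UMIs and was left out, and the member with the fewest, Rpl39l, had 113. The rule itself uses only the symbol and the UMI sum. The set holds 47 large-subunit proteins with 50.1% of the members' UMIs, 32 small-subunit proteins with 45.1%, and the 3 proteins of the acidic stalk (Rplp0, Rplp1 and Rplp2) with 4.86%. Genes that encode cytosolic ribosomal proteins under other names, such as Fau, Rack1 and Rpl36al, were kept as a comparison list.

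A ribosome is built from a small subunit, which reads the mRNA, and a large subunit, which joins the amino acids. Each protein is needed in about the same number of copies, so their genes are known to be expressed together. Many of their mRNAs start with a C followed by an uninterrupted run of C and T (the terminal oligopyrimidine tract, 5′TOP), through which the mTOR kinase and LARP1 set their translation according to nutrients and growth signals. In T cells and B cells ribosome content is known to grow on activation, while mature neutrophils carry little RNA.

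Single cells from mice were profiled by droplet sequencing of the 3' ends of polyadenylated RNA, with 1 library for each of 4 treatments: ctrl, 2DG (2-deoxy-D-glucose, a glucose analogue that blocks glycolysis and interferes with N-glycosylation), aPDL1 (an antibody against the checkpoint ligand PD-L1) and both agents together, labelled 2DG_aPDL1 and called the combination here. Values are given in that order throughout. The series is about ovarian tumours and checkpoint blockade, and every library is labelled lymph node. Strain, sex, age, dose, time and the number of mice per library are not given in the sources used here, and no library carries an age label although the series' design text speaks of young and aged mice. Of 4 genes that mark lymph-node stroma (Ccl21a, Ccl19, Glycam1, Madcam1), none had more than 2 UMIs in any library.

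The 4 libraries held 8701 to 9948 cell barcodes and 61859753 to 73885214 UMIs, and 157 of 38068 barcodes occurred in more than 1 library. After filters 7390 to 8554 cells a library were left, and 71.9% of the ctrl cells and 80.5% to 82.4% of the others fell into a lineage by marker genes. The 9 classes compared were CD8 T, CD4 T, regulatory T, NK, B, neutrophil, macrophages with C1q, monocytes without C1q, and dendritic cells, and 2 parts of the CD8 T class were gated as naive and as checkpoint-positive. Their makeup differed between libraries: ctrl held 2669 neutrophils and 123 CD8 T cells, and the others 234 to 302 neutrophils and 1361 to 1680 CD8 T cells. All comparisons were therefore made within or between gated classes. No treatment has a replicate, so differences between treatments carry no p-value. Each class was present in all 4 libraries, which served as the replicates of differences between classes. Nothing says that the libraries are more than 4 single preparations. The spread behind these p-values is what class and library terms leave over, pooled over all classes in a fit and partly over genes. Treatment effects on a class difference are included in it. It is not the spread of a single contrast over the 4 libraries.

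The members took 7.55%, 8.99%, 9.05% and 10.1% of all UMIs of the 4 libraries. Summed over the libraries, 48 members stood above 1000 CPM (UMIs scaled to the same total in every sum) and held 75.1% of the members' UMIs, while 3 stood under 100 CPM. The 10 most abundant held 20.8%, so no member dominated the sum. Rps29, a small-subunit protein (chr12:69157722-69159186, minus strand; mm10 as in all positions), was the most abundant by UMIs, with 571439 UMIs or 2165 CPM. Rps9, a small-subunit protein that binds ribosomal RNA at the mRNA entry side (chr7:3703993-3706897, plus strand), followed with 2083 CPM, and Rpl13 of the large subunit with 1956 CPM. Counts from 3' ends are not scaled by gene length. At the other end were paralogue forms: Rpl3l, a form of Rpl3 known from striated muscle (chr17:24727820-24736143, plus strand), with 1002 UMIs, and Rpl7l1, a relative of Rpl7, with 10074. The 5 paralogue forms (Rpl3l, Rpl7l1, Rpl22l1, Rpl39l and Rps27l) together held 0.42% of the members' UMIs. The members lie on 19 chromosomes, with 4 on chromosome X. Gene models of 22 members overlap another counted gene, 1 of them on the same strand, and 60 have 1 or more processed copies named after them in the genome, 292 copies in all, of which 5 were counted as genes. The sources used here do not state how reads shared by a gene and its copies were assigned, so levels of single members are less certain than their sum.

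The start of the mRNA was looked at because it is known to carry the control that many members share. RefSeq windows on GRCm38.p6, from 250 bases before to 50 bases after the annotated start, matched 62 of the 82 members, with 74 windows in all, and 20 members had none. A C at the annotated start followed by 4 letters that are each C or T was found in 13 of the 62 (21.0%), and in 3.01% of 27025 genes. A run of 8 or more letters C or T between 20 bases before and 30 after the start was found in 34 of the 62 (54.8%), and in 21.5% of all genes. The median of the longest run was 9 letters in members and 5 in all genes. CCGGAAGT, the core bound by ETS-family factors, was found on either strand in 12 members (19.4%) and in 4.31% of genes, while TATAAA between 40 and 15 bases before the start was found in 1 member, Rpl22l1 (1.61%), and in 2.41% of genes. These are matches of letters, and an annotated start can lie some bases from the one used. The stretches from 10 bases before to 20 bases from the start are printed for members whose values the results turn on, 5′ to 3′ on the gene's strand, with the longest run of C and T in capitals:
Rps18: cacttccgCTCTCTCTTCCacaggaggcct
Rps27: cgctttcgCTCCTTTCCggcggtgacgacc
Rps9: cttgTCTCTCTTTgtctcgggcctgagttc
Rpl12: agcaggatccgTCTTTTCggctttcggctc
Rps27l: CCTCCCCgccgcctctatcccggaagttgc
Rpl3l: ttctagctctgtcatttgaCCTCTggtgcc
Rpl7l1: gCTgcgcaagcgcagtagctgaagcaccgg
They lie at chr17:33955646-33955675 (Rps18, minus strand), chr3:90213629-90213658 (Rps27, minus), chr7:3704031-3704060 (Rps9, plus), chr2:32961702-32961731 (Rpl12, plus), chr9:66946076-66946105 (Rps27l, plus), chr17:24727816-24727845 (Rpl3l, plus) and chr17:46782637-46782666 (Rpl7l1, minus). Rps27l and Rpl3l have a further annotated start whose stretch is not printed. The run in the stretch is 11 letters in Rps18, 9 in Rps27 and Rps9 and 7 in Rpl12 and Rps27l, against 5 in Rpl3l and 2 in Rpl7l1. The runs of Rps27l and Rpl7l1 lie wholly before the annotated start. That of Rps27l begins at the edge of the stretch, so its full length is not shown.

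Between classes the largest difference was the low level in neutrophils. Member UMIs made up 1.71%, 2.09%, 1.93% and 2.62% of neutrophil UMIs, and in the other 8 classes between 7.15% and 16.8%. CD8 T cells had 10.6%, 9.92%, 10.5% and 12.4%, and CD4 T cells 9.43%, 8.88%, 8.93% and 10.0%. The CD8 value was above the CD4 value in all 4 libraries, by a mean log2 ratio of 0.22 ± 0.07 (SD, n = 4). B cells had 10.9%, 10.7%, 11.1% and 16.8%, with the combination far above the other libraries. Regulatory T cells had 8.75%, 8.47%, 8.09% and 9.55%, and NK cells 8.09%, 7.96%, 7.15% and 9.73%. Among myeloid classes, C1q macrophages had 9.74%, 9.03%, 9.17% and 8.49%, monocytes 8.83%, 8.86%, 8.52% and 9.61%, and dendritic cells 10.5%, 9.99%, 10.0% and 10.8%. These 3 overlapped the range of the T cells. As molecules per cell, CD8 T cells held 760, 684, 695 and 814 member UMIs, C1q macrophages 1244, 909, 866 and 816, and neutrophils 89.7, 76.0, 61.6 and 78.6. Total UMIs per cell differ between classes, and a share cannot tell more ribosomal protein mRNA from less of other mRNA.

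**Figure D1:**
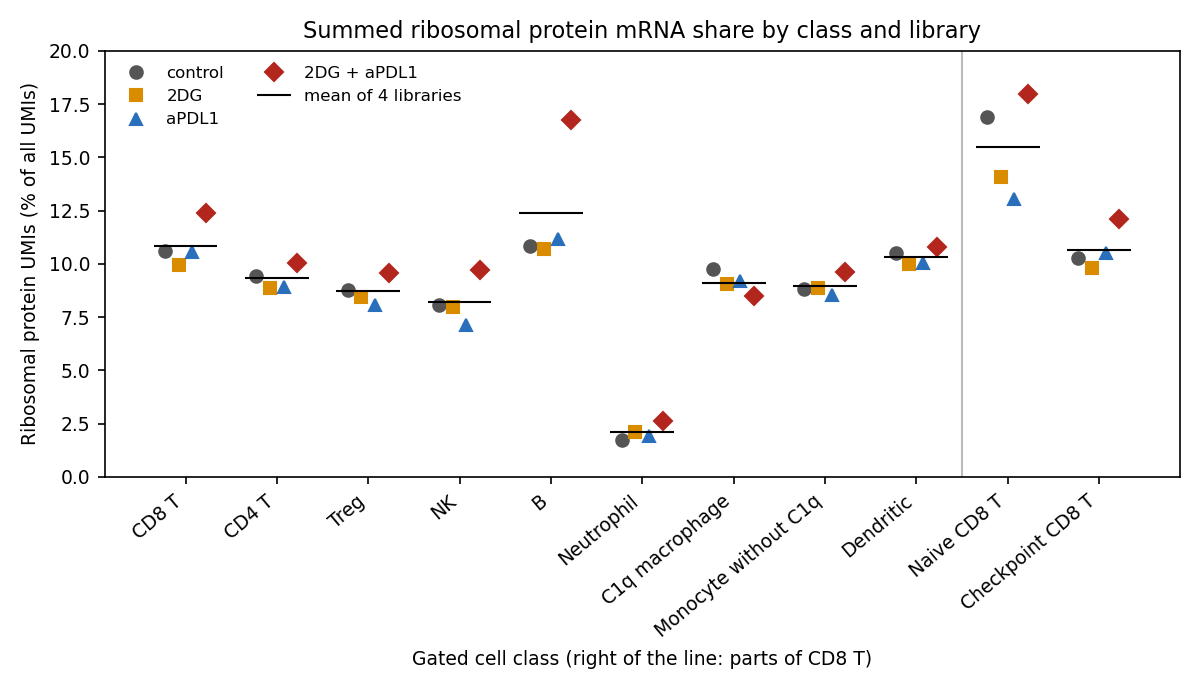
Percent of all UMIs taken by the 82 members (y axis) in 9 gated classes and, right of the line, in parts of the CD8 T class (x axis). Each marker is 1 library and the bar is the mean of 4. Neutrophils lie at 1.71% to 2.62%, below the other classes, and the ctrl point of naive CD8 T cells rests on 5 cells.

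Lymphoid classes (CD8 T, CD4 T, NK and B) were set against myeloid ones (neutrophil, C1q macrophage and monocyte). The summed share was higher in lymphoid cells in 4 of 4 libraries, by a log2 ratio of 0.87, 0.76, 0.81 and 1.0, a mean of 0.86 ± 0.10 (SD, n = 4) or 1.81-fold. Without the neutrophils, an alternative added after the data were seen, the ratio was 0.0610, 0.0568, 0.0742 and 0.401, a mean of 0.15 ± 0.17 (SD, n = 4). Without the combination library as well it was 0.0640, so the summed difference was mostly that of neutrophils and the rest mostly that of the combination. Gene by gene, edgeR's quasi-likelihood test with Benjamini-Hochberg adjustment over 12457 genes put 66 of 81 tested members higher and 7 lower in lymphoid cells at an adjusted p under 0.05, where 38.6% and 38.0% of all genes passed. The median log2 difference was 0.44 for members and 0.05 for all genes tested, and the member median was 0.89 with library totals in place of TMM factors, so its size depends on the scaling. Neutrophils are part of the myeloid side of this test, and the members' median in them was -1.88 against monocytes. Gene-by-gene counts without neutrophils are not given here, so these counts cannot be read as a difference from every myeloid class.

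Rpl12, a large-subunit protein at the base of the stalk (chr2:32961559-32965345, plus strand), stood furthest on the lymphoid side. Its level was 1745, 1537, 1609.9 and 1909 CPM in CD8 T cells and 2079, 1922, 1869.6 and 3067 CPM in B cells. In monocytes it was 849, 758, 702 and 753 CPM, and in neutrophils 97.3, 134, 106 and 189 CPM. The B cell and CD8 T cell values all lay above the myeloid ones, and the fitted log2 difference was 1.29 ± 0.07 (SE; edgeR quasi-likelihood, adjusted p 5.66e-18). Next were Rpl13a and Rps15a (both 1.02), Rpl3, which lines the peptidyl transferase centre (0.96), and Rps18, in the head of the small subunit (0.96). Rps15a was 2129, 1877, 1798 and 2409.8 CPM in CD4 T cells and 1368, 1143, 990.3 and 1641 CPM in NK cells, every CD4 value above every NK value, so lymphoid classes also differed among themselves.

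The stalk proteins, which recruit the elongation factors to the ribosome, were each called higher in lymphoid cells: Rplp1 by 0.73, Rplp2 by 0.32 and Rplp0, their anchor, by 0.21. Rplp1 was 2285, 2279, 2305 and 2450.2 CPM in CD8 T cells and 248, 337, 311 and 411 in neutrophils. In C1q macrophages it was 2028, 2017, 2040 and 1654 CPM, beside 1971, 1968, 2022 and 1982 CPM in CD4 T cells. Monocytes held less, at 1478, 1474, 1392 and 1375 CPM. Rplp0 was 1318, 1318, 1326 and 1452 CPM in monocytes, above the 1066, 1120, 1167 and 1194 CPM of CD4 T cells. These calls thus did not hold for each lymphoid class against each myeloid class. Rpsa, a small-subunit protein that is also known as a laminin receptor, was higher by 0.82, Rpl39 of the exit tunnel by 0.78 and Rpl22l1 by 0.86, beside 0.48 for its paralogue Rpl22. The members without a call were Rpl7a, Rpl10, Rpl26, Rpl28, Rpl29, Rpl31, Rpl35a and Rpl41, the shortest protein of the large subunit. Rpl39l was too rare to be tested.

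The 7 that were higher in myeloid cells were Rpl3l, Rps27l, Rps9, Rpl7l1, Rps27a, Rps25 and Rps29. Rpl3l was almost limited to myeloid cells: it had 0, 4, 1 and 0 UMIs in CD8 T cells, and 120, 17, 7 and 8 in neutrophils. Monocytes held 44, 77, 71 and 57 UMIs of it, and C1q macrophages 17, 7, 15 and 15. NK and regulatory T cells held 0 in every library, with exact Poisson 95% upper limits of 1.53 to 24.5 CPM (these limits cover counting error only), so a level like that of ctrl monocytes was not detectable in the ctrl sums. Rps27l, the p53-induced paralogue of Rps27 (chr9:66946086-66949516, plus strand), was 413, 517, 477 and 661 CPM in dendritic cells and 224, 222, 223 and 218 in C1q macrophages. It was 105, 104, 112 and 141 CPM in CD8 T cells and 89.5, 61.9, 36.9 and 60.7 in B cells, and 26.1, 65.6, 36.2 and 86.1 CPM in neutrophils. Dendritic cells and C1q macrophages thus stood above every lymphoid value, and neutrophils did not. The lymphoid minus myeloid difference of Rps27l was -0.90 ± 0.10 in log2 (SE; edgeR quasi-likelihood, adjusted p 2.67e-10). Rps9 was lower in lymphoid cells by a log2 difference of -0.52 and Rps27a, a ubiquitin fused to a small-subunit protein, by -0.32. With library totals in place of TMM factors 2 members rather than 7 were called lower, so most of these calls depend on the scaling. The values of Rpl7l1 and Rps27a turned to 0.01 and 0.12, and those of Rps25 and Rps29 were not followed under this alternative.

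**Figure D2:**
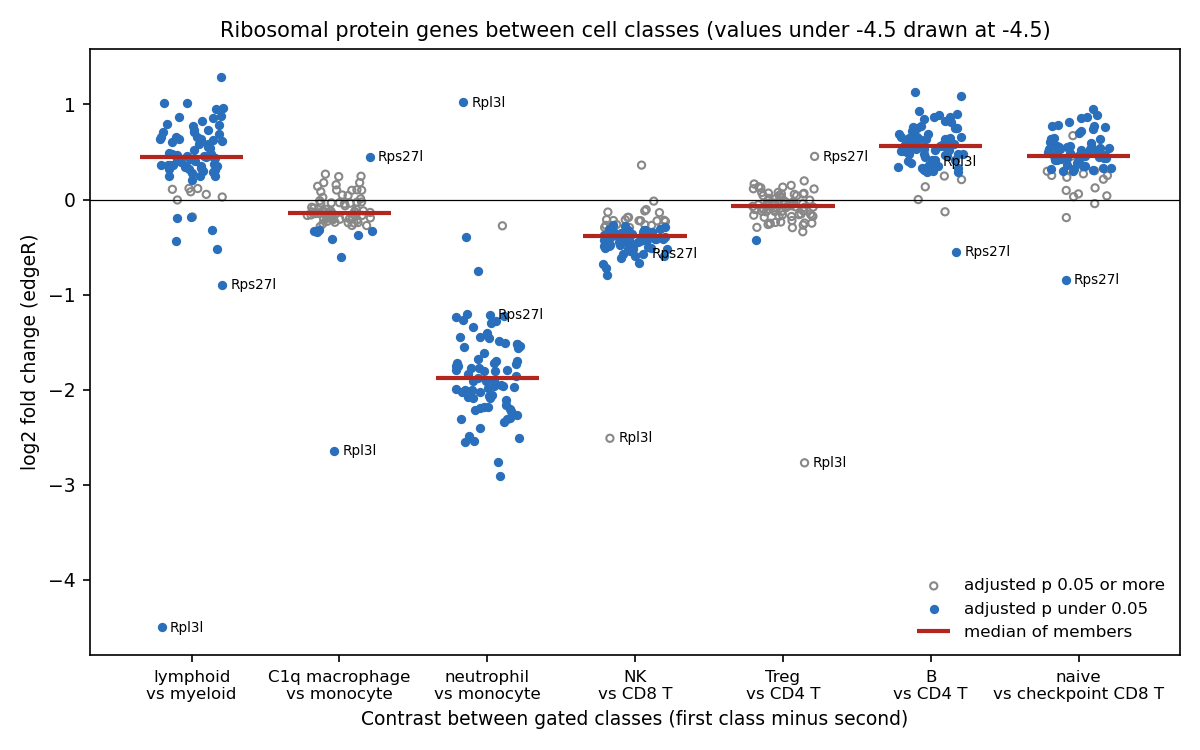
Fitted log2 fold change (y axis) of each tested member in 7 contrasts between classes (x axis). Filled points have an edgeR adjusted p under 0.05, open points do not, and the red bar is the median of the members. The median lies furthest from 0 for neutrophils against monocytes (-1.88) and on the positive side for B cells (0.57); values under -4.5 are drawn at -4.5.

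In neutrophils the whole set was low against monocytes: 79 of 81 members were lower and 1 was higher (edgeR quasi-likelihood, adjusted p under 0.05), where 37.2% and 28.4% of all genes passed. The median log2 difference was -1.88 for members and -0.18 for all genes. The summed share was lower in 4 of 4 libraries, by a mean of -2.12 ± 0.20 in log2 (SD, n = 4) or 0.231-fold. The size of the difference varied widely between members. Rpl10a, in the large subunit's L1 stalk, was 42.3, 79.3, 85.8 and 87.5 CPM in neutrophils and 697, 675, 658 and 692 CPM in monocytes, a log2 difference of -2.90. Rps4x, encoded on chromosome X, followed with -2.76, from 992, 1019, 990.4 and 1106 CPM in monocytes to 81.5, 106, 122 and 176 in neutrophils.

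Rps27, a small-subunit protein with a zinc finger (chr3:90212522-90213651, minus strand), fell least among the members called lower. It was 657, 463, 461 and 796 CPM in neutrophils and 935, 898, 935 and 1346 CPM in monocytes, a log2 difference of -0.40 ± 0.12 (SE; edgeR quasi-likelihood, adjusted p 0.00517). Rps9 was next, with 1059, 1246, 1230.0 and 1044 CPM in neutrophils against 2238, 2649, 2637 and 2735 in monocytes and a difference of -0.75. Neutrophils were lower in every library for both genes, yet by much less than the set. An intronless copy of Rps27 that was counted as its own gene, Rps27rt, had 1.8 to 20 CPM over classes and libraries. Rpl7l1 did not pass the test (-0.28, edgeR adjusted p 0.13). Rpl3l was the one member higher in neutrophils, at 8.57, 15.5, 9.39 and 10.9 CPM against 4.3, 12, 6.93 and 6.94 in monocytes (log2 1.02 ± 0.37, edgeR quasi-likelihood adjusted p 0.0179). This call was lost with DESeq2, with library totals and without the ctrl library, which held 120 of its neutrophil UMIs.

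C1q macrophages and monocytes, which share a lineage, differed in few members: 1 of 81 members was higher and 8 were lower in C1q macrophages (edgeR quasi-likelihood, adjusted p under 0.05), fewer than the 13.9% and 14.8% of all genes. The median log2 difference was -0.14 for members and -0.01 for all genes, and the summed share differed by 0.02 ± 0.14 (SD, n = 4). Rps27 was lower, at 801, 637, 686 and 883 CPM in C1q macrophages against 935, 898, 935 and 1346 in monocytes, by -0.61 ± 0.12 (SE; edgeR quasi-likelihood, adjusted p 0.000255). Its paralogue Rps27l went the other way, by 0.45 ± 0.16 (edgeR adjusted p 0.031). Within each library the C1q macrophages had less Rps27 and more Rps27l than the monocytes. Rpl3l (-2.65), Rps9 (-0.42), Rps14 (-0.37), Rps27a (-0.34), Rpl34 and Rpl9 were also lower. A fit on these 2 classes alone called 13 lower, with no share of all genes given for it. With library totals the counts became 8 higher and 3 lower and the median 0.02, and without the 2DG or the aPDL1 library 2 were lower and without the combination 4, each with 0 higher, so only the direction of single members can be read here.

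NK cells stood below CD8 T cells: 56 of 81 members were lower and 0 higher (edgeR quasi-likelihood, adjusted p under 0.05), where 17.2% and 13.2% of all genes passed. At an unadjusted p under 0.05, 65 were lower and 1 higher, and DESeq2 called 50 lower and 1 higher, with no shares of all genes given for either. The median was -0.39 for members and -0.10 for all genes, and the summed share was lower in 4 of 4 libraries by -0.40 ± 0.11 in log2 (SD, n = 4). Rps15a, part of the small-subunit body, differed most among the members called, with 1368, 1143, 990.3 and 1641 CPM in NK cells and 2151, 1889.5, 2074 and 2868 CPM in CD8 T cells (-0.80). Every NK value lay below every CD8 T value. Rps26 (-0.72), Rpsa (-0.68), Rps19 (-0.67) and Rpl12 (-0.62) followed; Rpsa and Rps19 are both needed to mature the small subunit. Rpl10, which joins the large subunit late, was 671, 898, 789 and 1044 CPM in NK cells and 631, 654, 665 and 763 in CD8 T cells, and its fitted difference of 0.36 did not pass (edgeR adjusted p 0.116). The number called lower was 7 without the aPDL1 library and 25 without the 2DG library, and ctrl gave only 26 NK cells.

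Regulatory T cells were close to other CD4 T cells: 1 of 81 members was lower and 0 higher (edgeR quasi-likelihood, adjusted p under 0.05), where 5.68% and 6.9% of all genes passed. At an unadjusted p under 0.05, 9 were lower and 1 higher, and DESeq2 called 5 lower and 0 higher. A fit on those 2 classes alone called 15 lower and 2 higher. The shares of all genes in these alternatives are not given here, and 5.68% and 6.9% do not apply to them. The summed share was lower in 4 of 4 libraries, by only -0.10 ± 0.04 in log2 (SD, n = 4). The 1 member called was Rpl13a, a large-subunit protein also known from interferon-dependent control of translation. It was 1366, 1436, 1326 and 1503 CPM in regulatory T cells and 1761, 1925, 1958 and 2028 in CD4 T cells, a difference of -0.42 ± 0.11 (SE; edgeR adjusted p 0.00694). The regulatory T cell values did not overlap the others. Without the 2DG or the aPDL1 library this call was lost.

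B cells stood above CD4 T cells: 74 of 81 members were higher and 1 lower (edgeR quasi-likelihood, adjusted p under 0.05), where 19.7% and 23.6% of all genes passed. The median log2 difference was 0.57 for members and -0.06 for all genes. Rps19, mutated in Diamond-Blackfan anaemia, differed most: 1892, 1979.6, 1957 and 3005 CPM in B cells and 1095, 1142, 1126 and 1136 CPM in CD4 T cells (1.13 ± 0.13, SE; edgeR adjusted p 4.84e-09). All B cell values were above all CD4 values, with the combination highest. Rps20 (1.09), Rpl10a (0.93), Rps28 (0.90) and Rps27 (0.89) followed. Rps27l was again the exception, lower by -0.55 ± 0.19 (edgeR adjusted p 0.0159), and this call was lost without the 2DG, the aPDL1 or the combination library. The B class was not the same kind of cell in each library: Jchain, a gene of antibody-secreting cells, was at 4657, 4.53, 243 and 2.41 CPM, and the immunoglobulin heavy chain gene Ighm at 11366 CPM in ctrl and 2372 to 2408 elsewhere. The part of that difference in the B cell values was not tested.

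Within CD8 T cells, those gated as naive (at least 2 genes of a short list of naive T cell markers that includes Ccr7, Lef1 and S1pr1) were set against those gated as checkpoint-positive (at least 2 of Pdcd1, Havcr2, Lag3, Tigit, Ctla4 and Tox). Naive cells had a higher member share, 14.1%, 13% and 17.9% in the 2DG, aPDL1 and combination libraries, against 9.78%, 10.5% and 12.1%. The ctrl library had 5 naive cells and was not used, and the other 3 had 26, 29 and 37. In the edgeR fit 62 of 80 members were higher and 1 lower in naive cells (adjusted p under 0.05), where 6.54% and 8.76% of all genes passed. The median log2 difference was 0.46 for members and -0.17 for all genes. Rps19 was 2187, 2157 and 2738 CPM in naive cells and 1155, 1210.3 and 1314 CPM in checkpoint-positive cells, a log2 difference of 0.95 without overlap. Rps20 (0.89), Rps28 (0.86), Rpl12 (0.86) and Rps29 (0.82) followed, and Rps27l was lower, by -0.85 ± 0.25 (SE; edgeR quasi-likelihood, adjusted p 0.00827), a call lost with DESeq2, without the library term and without the aPDL1 library. The count of 62 was 32 without the 2DG library, 39 without the combination and 15 without the library term. Proliferation also went with a higher share: CD8 T cells with at least 3 of 5 proliferation genes had 13.6%, 12.1%, 12.6% and 14.4%, and the rest 9.83%, 9.41%, 10.0% and 11.9%.

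The makeup of the set, as each member's share of the members' UMIs, also varied between classes. Over 80 members with at least 100 UMIs in every class, the median range between the highest and the lowest class was 0.59 in log2; 14 members ranged over more than 1 and 27 over less than 0.5. Neutrophils were the highest class for 20 members and the lowest for 30. Rps27l had the widest range, 10.0-fold: 0.392, 0.518, 0.476 and 0.613 percent of the members' UMIs in dendritic cells and 0.0825, 0.0579, 0.0331 and 0.0362 percent in B cells. Those values did not overlap. Rpl7l1 ranged 4.31-fold, highest in neutrophils and lowest in CD8 T cells. It had 235, 31, 15 and 24 UMIs in neutrophils and 13, 340, 407 and 383 in CD8 T cells, so few counts lie behind part of this range. Rps9 ranged 3.48-fold, taking 6.19, 5.96, 6.36 and 3.98 percent in neutrophils and 1.6, 1.66, 1.67 and 1.44 percent in NK cells. Rps27 ranged 3.42-fold, with 3.84, 2.21, 2.39 and 3.03 percent in neutrophils and 0.822, 0.705, 0.748 and 1.04 percent in C1q macrophages. For both genes the neutrophil share was the higher one in every library. Rpl12 ranged 2.92-fold, Rpl10a 2.79-fold and Rpl3 2.45-fold, each lowest in neutrophils. At the other end Rps15 ranged 1.08-fold and Rpl18 1.15-fold, so these kept nearly the same place in the set in every class.

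**Figure D3:**
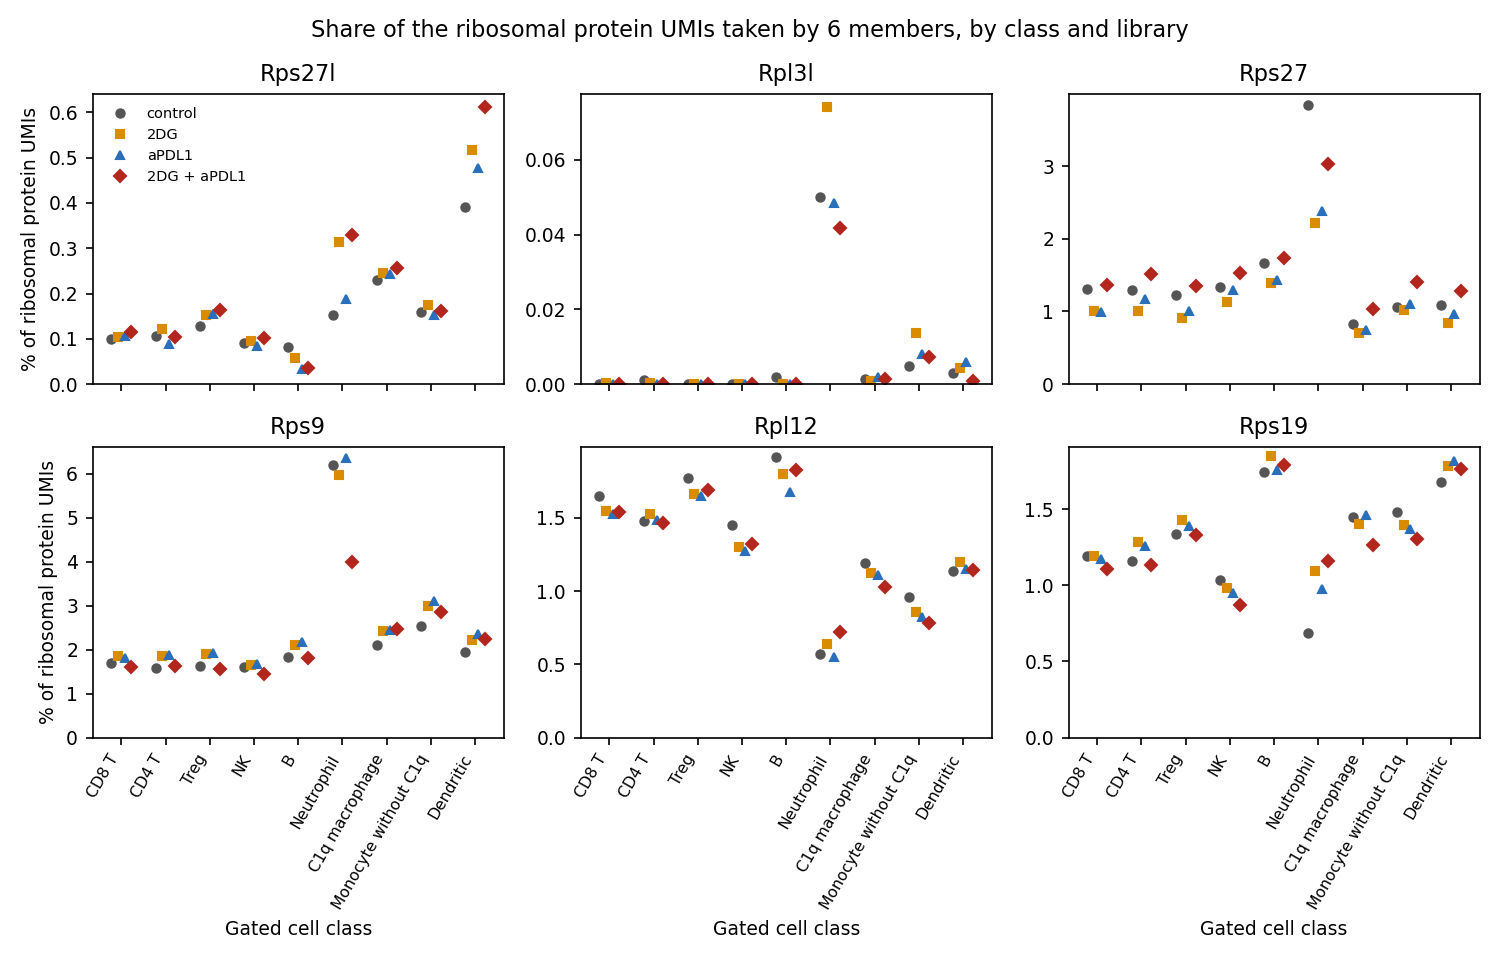
Share of the members' UMIs (y axis, percent, from 0) taken by 6 members in each class (x axis), with 1 marker per library. Rps9 reaches 6.36% in neutrophils, where Rps27 reaches 3.84%, and Rps27l is highest in dendritic cells.

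**Figure D4:**
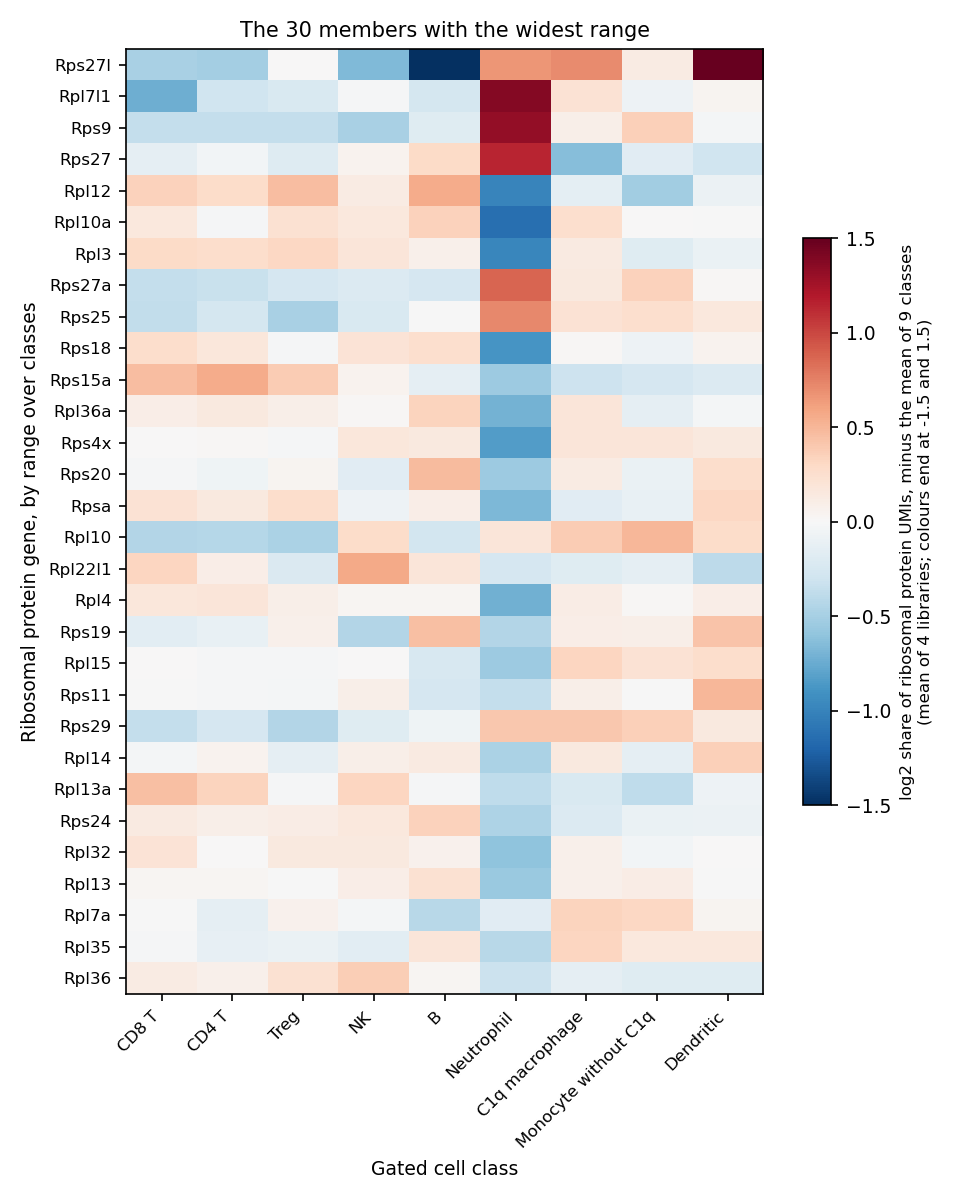
The 30 ranked members with the widest range (y axis) in 9 classes (x axis), as the log2 share of the members' UMIs minus its mean over classes, averaged over 4 libraries; colours end at -1.5 and 1.5. The neutrophil column stands out in both directions, and Rps27l at the top is high in dendritic cells and low in B cells.

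Across the 36 sums of a class in a library the members varied together. Pearson's r between a member's log2 CPM and the sum of the members had a median of 0.98, with 71 of 81 at 0.9 or more, beside a median of 0.24 and 0.778% at 0.9 or more for 14273 other genes. Without the 4 neutrophil sums the members' median was 0.79 and 14 reached 0.9, so the low neutrophil level carries much of this. The sums share libraries and each member is part of the total, so these are descriptions. The least alike were Rpl3l (-0.56), Rps27l (0.46), Rpl7l1 (0.52), Rps9 (0.68) and Rps27 (0.71). The 5 other genes most like the sum were Rack1, a protein of the small subunit outside the symbol rule (0.98, and 0.75 without neutrophils), Eif3i of the initiation factor eIF3 (0.98 and 0.79), Cct4 of the chaperonin that folds actin and tubulin (0.97 and 0.64), the elongation factor gene Eef1b2 (0.97 and 0.79) and Npm1, a nucleolar protein (0.97 and 0.64).

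Genes of the same pathway from lists outside the set were counted by the same test, to be read against the shares of all genes called. Between lymphoid and myeloid cells those shares were 38.6% higher and 38.0% lower. Neutrophils are part of the myeloid side here too, and list counts without them are not given. Of 36 ribosome biogenesis factors 26 were higher and 2 lower in lymphoid cells (median log2 0.55), among them Myc (2.74), a transcription factor that drives ribosome production. Of 20 translation factors and related genes with known 5′TOP mRNAs, such as Eef1b2 and Npm1, 15 were higher and 2 lower (0.48). Of the ribosomal proteins outside the symbol rule Rack1 was higher (0.54) and Fau, a small-subunit fusion, was lower (-0.52). Mitochondrial ribosomal proteins, which serve the separate ribosome of the mitochondrion, had 23 higher and 22 lower of 78 (0.06), both under the shares of all genes. Of 7 snoRNA host genes 4 were higher and 0 lower, and of 13 regulators of these mRNAs' translation 7 were higher and 4 lower. Against monocytes, neutrophils were lower in 20 of 20 of these 5′TOP genes, 26 of 36 biogenesis factors and 70 of 78 mitochondrial ribosomal proteins, where 37.2% of all genes were. C1q macrophages were higher than monocytes in 11 of 36 biogenesis factors and 20 of 78 mitochondrial ribosomal proteins, where 13.9% of all genes were, while 1 cytosolic member was higher. B cells were higher than CD4 T cells in 19 of 36 biogenesis factors and lower in 20 of 78 mitochondrial ribosomal proteins, where 19.7% of all genes were higher and 23.6% lower.

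Between treatments the members were compared as log2 ratios of CPM in 4 pairs: 2DG to ctrl, combination to aPDL1 (2DG on top of aPDL1), aPDL1 to ctrl, and combination to 2DG. Pairs that share a library are not independent. A member was counted when its ratio was at least 5 to 4, or at most 4 to 5, in both pairs of an agent, and the higher library of each pair gave it 100 or more UMIs. Classes needed at least 100 cells in every library, which left CD8 T, CD4 T, neutrophil, C1q macrophage, monocyte and dendritic cells. By this rule 0 of 80 members were counted for either agent in CD8 T cells, where 1.84% of all genes were higher and 3.89% lower with 2DG and 2.99% higher and 4% lower with aPDL1. In CD4 T cells 0 of 79 were counted, where the shares were 2.13% and 3.83% with 2DG and 5.66% and 4.18% with aPDL1. The median log2 ratios in CD8 T cells were -0.09 for 2DG to ctrl and -0.02 for aPDL1 to ctrl, but 0.25 for combination to aPDL1 and 0.32 for combination to 2DG. Over all genes tested those medians in CD8 T cells were -0.01, 0.02, -0.08 and -0.03. In CD4 T cells the members' medians were -0.10, -0.12, 0.21 and 0.20 in the same order, and those of all genes lay between -0.06 and 0.01. Either agent alone thus stood near ctrl and the combination above both.

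**Figure D5:**
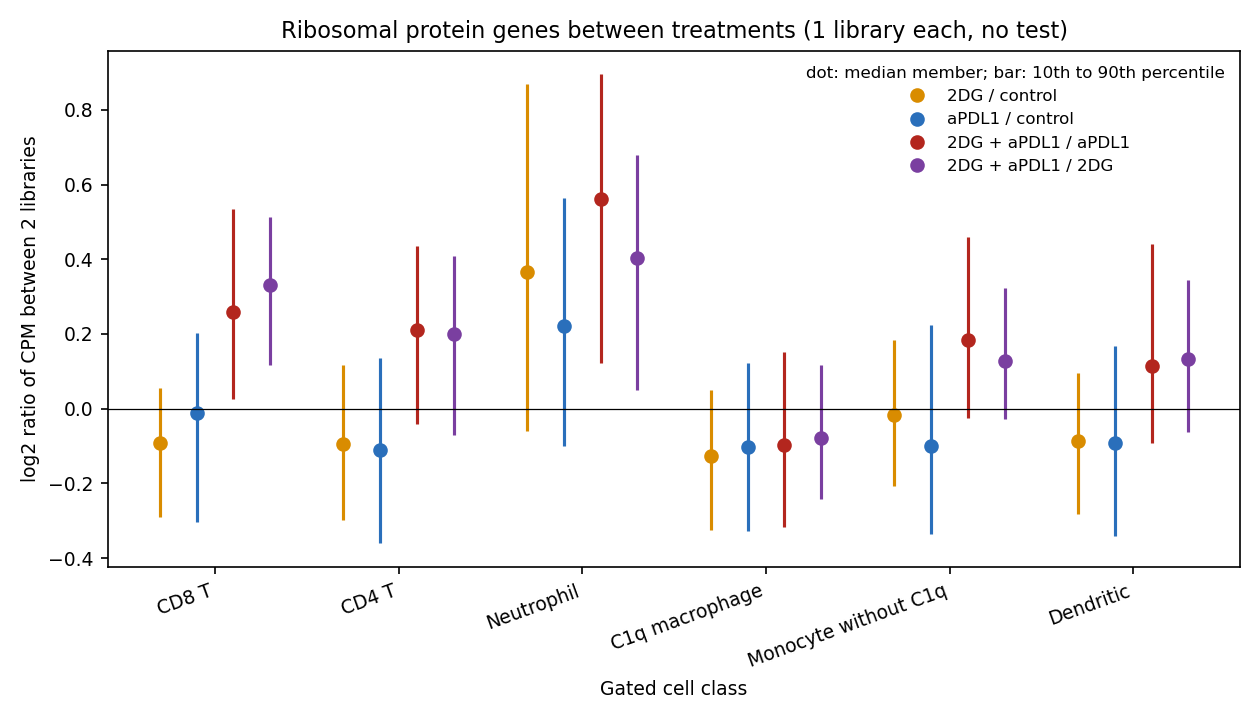
Log2 ratio of CPM between 2 libraries (y axis) in 6 classes (x axis) for the 4 pairs of treatments; dots are the median member and bars run from the 10th to the 90th percentile of members. In CD8 T and CD4 T cells the dots of the 2 pairs with the combination on top lie above 0 (0.20 to 0.32) and the other 2 lie below 0; there is 1 library per treatment and no test.

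A count of members whose highest level was in the combination, a rule added after the data were seen, gave 72 of 80 in CD8 T cells, where 23.6% of all genes had it. For 10 of 80 members (12.5%) the combination was above each other library by at least 5 to 4, beside 4.6% of all genes. Most of these differences were thus small. The count of members highest in the combination was 69 in checkpoint-positive cells alone and 74 in cells that were not proliferating. The 23.6% is the share in all CD8 T cells, and those of these 2 parts are not given here. Rps27 was 1385, 994, 1049 and 1690.1 CPM in CD8 T cells, highest in the combination and lowest in 2DG. Rps15a was 2151, 1889.5, 2074 and 2868 CPM there and Rpl39, a very short large-subunit protein of the exit tunnel, 1671, 1253, 1359 and 2123 CPM. Among mitochondrial ribosomal proteins 44 of 76 were highest in the combination in CD8 T cells. Other classes gave 53 of 80 in CD4 T cells (25% of all genes), 51 of 80 in monocytes (22.9%), 39 of 80 in dendritic cells (33.4%) and 70 of 81 in neutrophils (35.6%). C1q macrophages went against this, with 1 of 80 highest (22.3% of all genes) and 49 lowest in the combination (41.6% of all genes). The number lowest there was 29 with TMM factors, for which the share of all genes is not given. A sum of 8 stress and immediate-early genes (Hspa1a, Hspa1b, Dnajb1, Hsph1, Fos, Jun, Egr1, Atf3), chosen after the data were seen, was 2552, 1544, 1345 and 1248 CPM in CD8 T cells and 5702, 4025, 4010 and 6021 CPM in C1q macrophages. In monocytes it was 5912, 5091, 5596 and 5807 CPM and in dendritic cells 4262, 1945.5, 2156 and 2199.5 CPM. Its part in these values was not tested.

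In neutrophils 32 of 72 members were higher by at least 5 to 4 with 2DG in both pairs, where 11.5% of all genes were, and 12 of 73 were higher with aPDL1, where 5.12% were. The same 4 libraries give both counts. Rps20, a small-subunit protein, was 121, 223, 173 and 328 CPM. Rps18 was 72.1, 131, 106 and 185 CPM and Rps19 117, 229, 189 and 305 CPM. For all 3 ctrl was lowest and the combination highest. The median log2 ratios were 0.37 for 2DG to ctrl, 0.55 for combination to aPDL1, 0.22 for aPDL1 to ctrl and 0.38 for combination to 2DG, beside 0.16, 0.05, 0.09 and -0.00196 for all genes. These values hinge on the processing: TMM factors moved them by -0.35 for 2DG to ctrl and for aPDL1 to ctrl, to 0.01 and -0.12, and with no doublets removed the ratio of combination to 2DG was -0.36 and the count of members highest in the combination was 5 rather than 70. Neutrophil depth also differed, with a median of 3928 UMIs a cell in ctrl and 2583.5 to 2886.5 in the others.

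Single members were counted in the other myeloid classes. Rps18 was lower with aPDL1 in C1q macrophages, at 1139, 1035, 911 and 799.5 CPM, the 1 member of 80 counted where 4.13% of all genes were. Rps2, at the mRNA entry of the small subunit, was lower with aPDL1 in monocytes, at 752, 689, 565 and 522 CPM, the 1 of 80 where 2.96% of genes were. Rps27l was higher with 2DG in dendritic cells, at 413, 517, 477 and 661 CPM, the 1 of 80 where 3.34% were. Each count is below its background share, so none stands apart from other genes, and at 1.5-fold none of the 3 was counted. The median ratios in C1q macrophages were -0.13, -0.10, -0.10 and -0.08 for 2DG to ctrl, combination to aPDL1, aPDL1 to ctrl and combination to 2DG, beside -0.02, -0.09, 0.01 and -0.05 for all genes, so the members lay close to other genes in the pairs with the combination. In monocytes they were -0.01, 0.18, -0.09 and 0.13 beside 0.18, -0.07, 0.19 and -0.06, and in dendritic cells -0.09, 0.10, -0.08 and 0.13 beside 0.03, -0.00963, 0.02 and -0.00237. For the other agents and directions in neutrophils, C1q macrophages, monocytes and dendritic cells 0 members were counted, where 2.89% to 8.35% of all genes were.

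The libraries also split in a way that did not follow 1 agent. In 6 of 80 members, Rps27, Rpl9, Rpl17, Rpl22l1, Rpl23 and Rpl24, the ctrl and combination libraries both stood above the 2DG and aPDL1 libraries in all 6 classes, where 0.85% of 5292 genes did. This rule was added after the data were seen and set no least difference. Rps27 passed in monocytes at 935.2 CPM in ctrl against 934.8 in aPDL1. Rpl22l1 passed in neutrophils with only 34, 18 and 27 UMIs in the 2DG, aPDL1 and combination libraries. Rpl22l1, the paralogue of Rpl22 that can replace it in the large subunit, was 308, 203, 203 and 345 CPM in CD8 T cells and 228, 126, 126 and 151 CPM in C1q macrophages. Rpl9, a large-subunit protein, was 955, 774, 654 and 967 CPM in monocytes and 1004, 827, 715 and 950.4 CPM in dendritic cells. Rps27 was 1141, 846, 971 and 1391 CPM in dendritic cells and 801, 637, 686 and 883 CPM in C1q macrophages. In each of these the 2DG and aPDL1 libraries were the lower ones, in lymphoid and myeloid cells alike. The count was 18 with TMM factors, 10 as shares of the members' UMIs and 1 with no doublets removed. The shares of all genes under these settings are not given here, and the 0.85% does not apply to them. Rps6, the substrate of S6 kinase downstream of mTOR, was lowest in the aPDL1 library in each of the 9 classes. In CD4 T cells, for example, it was 734, 558, 512 and 765 CPM. Rpl9, Rpl17 and Rpl24 were also lowest in that library in all 6 classes, so this was not particular to Rps6. How many members or other genes did so is not given here. Rps21 was the 1 member higher in both aPDL1 and combination than in ctrl and 2DG in all 6 classes, where 0.113% of genes were, with 1691, 1513, 1813 and 2007 CPM in CD8 T cells. The other 4 ways to split the libraries into pairs gave 0 members. With 1 library per treatment, a treatment and a property of its library cannot be told apart.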

How the data were processed

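Single cells of 4 libraries, 1 per treatment, were analysed. The authors deposited raw counts of UMIs for each gene in each barcode. Per the file headers these came from Cell Ranger 7.0.0, while the submitters' processing notes name Cell Ranger 3.1.0 and mm10. The sources used here do not state whether intronic reads were counted or how reads shared between gene copies were treated. Members and gene lists were chosen with earlier results of these data known.

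Cells needed at least 500 genes and at most 10% mitochondrial UMIs. Doublets were removed with Scrublet in scanpy 1.11.5, at 0.8% per 1000 barcodes. A cell entered a lineage with at least 3 of its 10 marker genes and at least 3 times the number of any other lineage. CD8 T, CD4 T and regulatory T cells were split by Cd8a or Cd8b1, Cd4 and Foxp3, C1q macrophages had all of C1qa, C1qb and C1qc, and monocytes had none of these and at least 1 of Ly6c2, Ccr2, F13a1 and Vcan. UMIs were summed per class and library, 36 sums in all, with 61859753 to 73885214 UMIs per library before filters.

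Class differences were tested with edgeR 4.0.16 (quasi-likelihood, TMM, library as block, Benjamini-Hochberg adjustment over all genes kept by its count filter). The naive against checkpoint-positive comparison was a separate fit with few residual degrees of freedom, so its p-values rest on the spread pooled over genes. CPM are UMIs scaled to the same total in every sum, with 0.5 added to counts in treatment ratios. The test was also run on counts simulated with the spread estimated from these data, and that outcome is not given here. Alternatives covered doublets, cell filters, gates, scaling, DESeq2 1.42.0, the count filter, the block and each library left out. Promoter windows are RefSeq's, GRCm38.p6. The genes named were up to 5 per direction and contrast furthest from the members' median, up to 5 per direction and class called for a treatment, a set list, the extremes of level and of range, and the 5 other genes most like the sum. Values of a few genes are not reported here.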

Additional observations from a re-analysis of the deposited data

Results flagged for a closer look

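In the combination library the summed members were higher in CD8 T cells and lower in C1q macrophages than in either single-agent library, which is why these values are listed. Combination over aPDL1, the summed log2 ratio was 0.232 in CD8 T cells and -0.112 in C1q macrophages. Combination over 2DG, it was 0.318 in CD8 T cells and -0.0896 in C1q macrophages. These pairs share the combination library, and with 1 library per treatment the difference between the classes was not tested. TMM factors took the C1q macrophage medians to 0.0289 and 0.00646. The stress gene sum was lower in the combination than with either agent alone in CD8 T cells. It was higher in C1q macrophages and monocytes, and slightly higher in dendritic cells (2199.5 against 2156 CPM with aPDL1). The part of the scaling or of these genes in the difference between the classes was not tested.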

How the results depend on the processing

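The counts of members higher in lymphoid cells, lower in neutrophils and higher in B cells stayed within 1.5 times under every alternative run. None of the alternatives for these counts left out the neutrophils. Leaving out 1 library at a time gave 0 to 2 members higher and 2 to 8 lower in C1q macrophages than in monocytes, 0 to 1 higher in neutrophils, 0 to 1 higher and 7 to 52 lower in NK cells, 0 to 1 higher and 0 to 1 lower in regulatory T cells, 0 to 1 lower in B cells, and 32 to 68 higher and 0 to 1 lower in naive cells. With library totals in place of TMM factors 2 were lower in lymphoid cells, where Rpl7l1 turned to 0.0148 and Rps27a to 0.12. C1q macrophages then had 8 higher and 3 lower (median 0.0223), neutrophils 0 higher and NK cells 1 higher. Regulatory T cells had 3 lower and B cells 2 lower. With DESeq2, 3 were higher in C1q macrophages, 0 in neutrophils and 1 in NK cells, 5 were lower in regulatory T cells and 0 in naive cells. With no filter on low counts, C1q macrophages had 0 higher and 2 lower, NK cells 32 lower and regulatory T cells 0. With no replicate block (the library term), C1q macrophages had 0 higher and 3 lower, NK cells 28 lower, B cells 0 lower and naive cells 15 higher and 0 lower. Fitted on the classes of a contrast alone, 13 were lower in C1q macrophages, 1 higher in NK cells, and 2 higher and 15 lower in regulatory T cells. With no doublet removal NK cells had 1 higher and 32 lower and B cells 0 lower, with 2 times the doublet rate regulatory T cells had 2 lower, and with 4 lineage genes C1q macrophages had 0 higher. The shares of all genes called under these alternatives are not given here. Without neutrophils the summed lymphoid ratio was 0.148, and without the combination library too 0.0640.

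With TMM factors the treatment medians were, for 2DG to ctrl, -0.0188 in CD8 T cells, -0.00482 in CD4 T cells, 0.0136 in neutrophils and -0.23 in monocytes. For combination to aPDL1 they were 0.28, 0.41, 0.0289 and 0.24 in CD4 T cells, neutrophils, C1q macrophages and monocytes. For aPDL1 to ctrl they were 0.0491, -0.0427, -0.12 and -0.27 in CD8 T cells, CD4 T cells, neutrophils and monocytes. For combination to 2DG they were 0.26, 0.25, 0.00646, 0.23 and 0.0875 in CD4 T cells, neutrophils, C1q macrophages, monocytes and dendritic cells. Neutrophil medians with no doublet removal were 1.02 (2DG to ctrl) and -0.36 (combination to 2DG, with Rps4x at -0.57, Rpl8 at -0.27, Rps20 at -0.46, Rps15a at -0.15 and Rps18 at -0.90), with 2 times the doublet rate 0.26 and 0.37 (combination to aPDL1), with at least 1000 genes 0.44 and 0.39 (aPDL1 to ctrl), and with 4 lineage genes 0.43 and 0.31. Monocytes gave -0.0695 for 2DG to ctrl with 4 lineage genes, and dendritic cells -0.12 with 2 times the doublet rate.

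At 1.5-fold in both pairs, 6 neutrophil members were counted for 2DG, 1 for aPDL1, and 0 in C1q macrophages, monocytes and dendritic cells. In neutrophils those were 8.33% and 1.37% of members, beside 3.27% and 1.05% of all genes. The shares of all genes were 1.08% and 0.763% lower with aPDL1 in C1q macrophages and monocytes, and 0.999% higher with 2DG in dendritic cells. Alternatives for counts over the 4 libraries were chosen after seeing the data. Above each other library by at least 5 to 4, the combination was highest for 10 members in CD8 T cells and 46 in neutrophils. Of all genes 4.6% and 15.4% passed there. It was highest for 3 in CD4 T cells, 0 in C1q macrophages, 1 in monocytes and 4 in dendritic cells. Of all genes 5.91%, 5.22%, 4.67% and 8.84% passed there, each above the members' share. Below each other library by as much, it was lowest for 3 members in C1q macrophages (3.75%), beside 11.8% of all genes. With no doublet removal 5 were highest in neutrophils, and with TMM factors 7 were highest and 29 lowest in C1q macrophages. The split of ctrl and combination from the others held 1 member with no doublet removal, 18 with TMM factors and 10 as shares. The shares of all genes under these scaling and doublet alternatives are not given here. No paired analysis was possible because each treatment has 1 library. The cause of these changes was not tested. Depth limits the naive sums (26 to 37 cells) and the ctrl NK sum (26 cells).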
